A study of Mus musculus with 6 samples.

Results

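The transcriptome of mouse bone marrow-derived macrophages (BMDMs) was compared between cells given lipopolysaccharide (LPS), the TLR4 ligand of Gram-negative bacteria, for 4 h and untreated cells. The comparison rests on 4 of the 6 arrays of the series, those titled as untreated macrophages (n = 2) and as macrophages given LPS (n = 2), over all probes that are not array controls. The other two arrays, of cells given an inhibitor of the deubiquitinase USP7 before LPS, entered only the shared estimate of the spread. All cells were wild type and came from the marrow of female C57BL/6 mice (the methods write C57BL6/J), aged 6 to 8 weeks by the labels, while the methods of the study give an older range. The marrow was cultured for 7 days in medium conditioned by L929 cells, a source of macrophage colony-stimulating factor. LPS was given at 100 ng/ml by the series text, while the sample labels write the same figure per µl. The untreated cells received neither LPS nor inhibitor, and the replicates of a group came from independent experiments by the series text. How many mice gave the marrow of each sample is not stated in the sources used here.

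TLR4, together with MD-2 and CD14, recognizes LPS at the cell surface and signals by 2 adaptor routes. The MyD88 route activates NF-κB and MAP kinases from the plasma membrane, and the TRIF route activates TBK1 and IRF3 from endosomes, which leads to interferon β. Secreted interferon β then acts back on the macrophage through JAK kinases and STAT factors, so that at 4 h direct NF-κB targets, interferon-stimulated genes and early feedback inhibitors can all be present in 1 RNA sample. Macrophages answer LPS by secreting cytokines and chemokines, by making nitric oxide and prostaglandins, and by changing their surface receptors and metabolism.

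The RNA was labeled with Cy3 and hybridized to 1-color Agilent mouse arrays on 1 slide, read in 1 scan. Each group had a slide column of its own, so column and treatment cannot be told apart, while both groups had replicate 1 in row 1 and replicate 2 in row 2. Each array had 59305 spots that were not controls, and the scanner marked 27467 and 27126 of them as well above background on the untreated arrays, 25223 and 25002 on the LPS arrays, and 0 as saturated. The 75th percentile of the signal was 325 and 458 in untreated cells and 241 and 288 with LPS, while the mean log2 signal of the 8 spike-in control probes was 12.35 and 12.65 in untreated cells and 12.45 and 12.29 with LPS. Across 21167 probes, which are not independent of each other, replicates correlated with r = 0.995 in untreated cells and 0.993 with LPS, and their log2 signals differed with an SD of 0.29 and 0.35. Arrays have no read depth, and the number of arrays, 2 a group, limits the precision. All 12 macrophage markers, among them *Adgre1* (F4/80), *Csf1r*, *Lyz2* and *Cd68*, were well above background on all 4 arrays.

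Markers of other cells were read beside these. The summed signal of the 12 T and NK cell markers lay between 11.22 and 11.33 on the log2 scale in untreated cells and between 12.19 and 12.25 with LPS. That of the 12 fibroblast and stromal markers lay between 7.85 and 7.91 and then between 9.49 and 9.62. Each of these lists had 1 raised member, the kinase gene *Lck* (4.23 ± 0.21, adjusted p = 0.00331) and the PDGF receptor gene *Pdgfrb* (5.29 ± 0.93, adjusted p = 0.0321), while *Cd3g*, *Cd8a*, *Zap70*, *Gzma*, *Col1a1*, *Col3a1* and *Pdgfra* were not well above background on any of the 4 arrays. The 10 granulocyte markers, of which 0 were called, summed to between 12.36 and 12.77 without LPS and to between 12.53 and 13.53 with it. Dendritic cell markers (10) went from between 15.48 and 15.57 to between 14.80 and 14.92, although *Ccr9* and *Zbtb46* were at least 5.43-fold and at least 5.65-fold higher with LPS, and *Xcr1*, *Clec9a*, *Flt3* and *Cd209a* were not well above background on any array. B and plasma cell markers (10) went from between 15.22 and 15.63 to between 14.96 and 14.98, with *Vpreb1* lowered (−2.45 ± 0.38, well above background on 1 of 2 LPS arrays) and *Pax5* and *Igll1* not well above background on any array. The 11 erythroid and mast cell markers lay between 15.98 and 17.21 without LPS and between 15.72 and 16.87 with it, with *Epor* called as lowered but not well above background on either LPS array, and *Alas2* not well above background on any array. With the arrays left out, the call of *Lck* was kept each time, 1 of the 2 dendritic calls was kept each time, and those of *Pdgfrb* and *Epor* were lost each time. A sum mostly follows the brightest probes of its list, so it is not a level of a cell type. Well above background on all 4 arrays were 5 of 12 T and NK, 2 of 12 fibroblast and stromal and 6 of 10 granulocyte markers. For the dendritic, the B and plasma and the erythroid and mast cell markers the counts were 3 of 10, 3 of 10 and 1 of 11. The part of such cells in the results was not tested, and in bulk RNA fewer cells of a type and less RNA per cell cannot be told apart. The call of *Vpreb1* was lost when only the 4 arrays of untreated and LPS were fitted, and with either untreated array left out. *Ccr9* (1 of 2 probes) and *Zbtb46* (1 of 2 probes) were called by part of their probes.

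Levels below are quantile-normalized log2 signals, and a difference is the LPS mean minus the untreated mean on that scale, so that a difference of 1 is a 2-fold change, with limma's standard error after the ± sign (n = 2 arrays a group). A gene is represented by its probe with the highest mean signal, and "rose" or "fell" is used where the adjusted p of limma over all probes was under 0.05. Levels of different genes come from different probes and are not set against each other.

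Of 22221 RefSeq genes tested, 2019 (9.09%) rose and 3716 (16.7%) fell. Among the 13082 of them that were well above background on both arrays of a group, called detected genes below, 1881 (14.4%) rose and 3591 (27.4%) fell. These shares of detected genes, 14.4% and 27.4%, are the background beside which the counts of each list are to be read. The falls were more numerous, and the rises were larger. The median rise was 1.48, and 516 of the raised genes changed by 2 to 4, 136 by 4 to 6 and 63 by 6 or more. The median fall was −1.03, and 499 of the lowered genes changed by 2 to 4, 37 by 4 to 6 and 2 by more. A difference of 4 or more was therefore found in 9.86% of the raised and 1.05% of the lowered genes. Over all 22221 genes the median difference was −0.013, with quartiles of −0.51 and 0.24. The median standard error was 0.15. Both LPS arrays lay above both untreated arrays in 29.9% of the 22221 genes and below both in 35%. All 2019 raised and all 3716 lowered genes were without overlap, so in a called gene a lack of overlap adds no support to the call.

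The counts depend on how many arrays were used and on the scaling. With untreated replicate 1, untreated replicate 2, LPS replicate 1 and LPS replicate 2 left out in turn, an order kept below, 984, 839, 945 and 1103 of the 2019 raised genes and 1323, 1132, 1696 and 2046 of the 3716 lowered genes stayed past the threshold. Scaled to the 75th percentile in place of quantile normalization, the median of all genes was 0.32 and raised genes made up 68.9% of the calls instead of 35.2%. Scaled to the spike-in controls, the median was −0.096 and the share was 30.2%. Both scalings shift all genes of an array together, so list medians under them are given relative to the median of all genes, which makes them nearly the same for both. The median of all genes, −0.013, includes 8211 genes that were well above background on none of the 4 arrays. Over the 11817 genes well above background on all 4 arrays the median was −0.24. For these it was −0.015 with 75th percentile and −0.43 with spike-in scaling. Medians of lists made up of such genes are to be read beside these values.

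**Figure D1:**
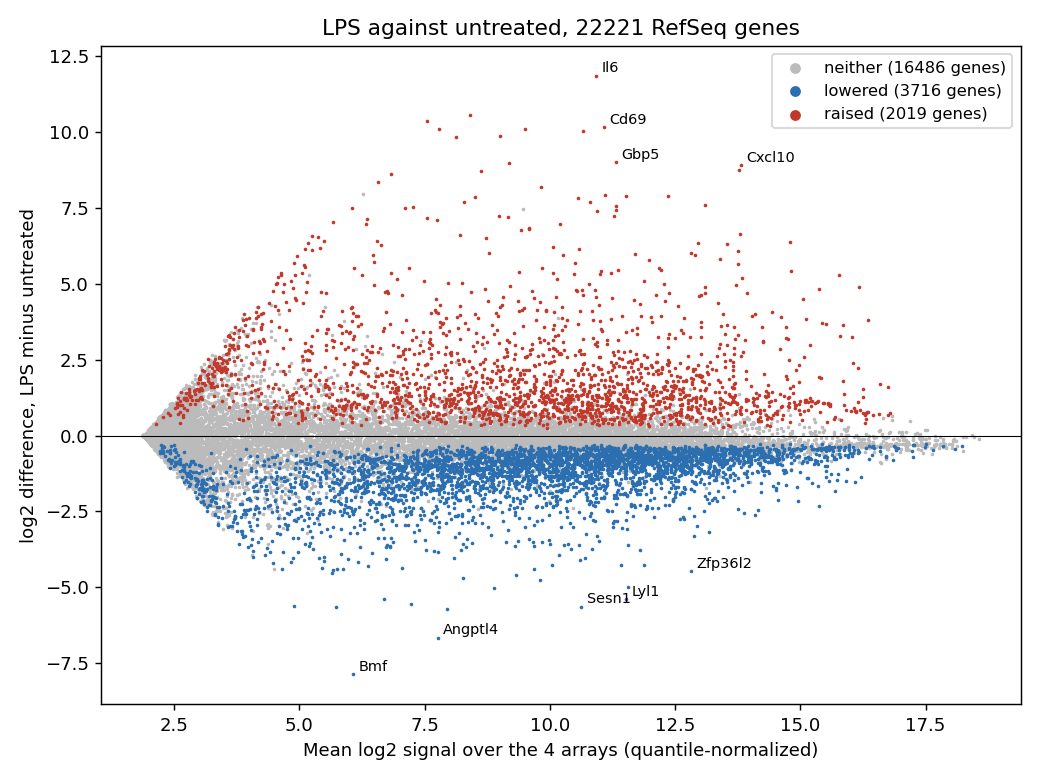
Difference between LPS and untreated arrays (log2, vertical axis) against the mean log2 signal over the 4 arrays (horizontal axis) for 22221 RefSeq genes, 1 point a gene, red where a gene rose (2019), blue where it fell (3716) and gray otherwise. The rises reach higher than 10 on the log2 scale, whereas only 2 genes fell by 6 or more.

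Beside *Il6*, *Il1b* and *Cd69*, the 10 raised genes with the largest differences among those well above background on all 4 arrays included a GTPase, a chemokine, 2 metabolic enzymes, a protease inhibitor, a feedback inhibitor and a costimulatory receptor. *Gbp5*, a guanylate-binding protein of cell-autonomous immunity, read 7.26 and 6.36 on the untreated arrays and 15.78 and 15.85 on the LPS arrays. *Acod1*, which makes itaconate from a TCA cycle intermediate, read 9.90 and 8.88 without LPS and 18.18 and 18.12 with it. *Cd40*, the receptor for the T cell ligand CD40L, read 7.45 and 7.69 without LPS and 15.51 and 15.45 with it. For these genes both LPS arrays were above both untreated arrays, and the differences were 9.0 ± 0.41 (adjusted p = 0.00311), 8.76 ± 0.39 (adjusted p = 0.00310) and 7.91 ± 0.37 (adjusted p = 0.00319). The others were *Cxcl10* (8.91 ± 0.34), the serpin *Serpina3g* (8.20 ± 0.58), the inducible nitric oxide synthase *Nos2* (7.94 ± 0.48) and *Socs3* (7.91 ± 0.27), which encodes an inhibitor of cytokine receptors.

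The 10 lowered genes chosen in the same way included regulators of transcription, growth and mRNA decay. *Sesn1*, a p53 target that restrains mTORC1, read 13.61 and 13.29 on the untreated arrays and 7.77 and 7.86 on the LPS arrays. *Lyl1*, a basic helix-loop-helix factor of blood cell development, read 14.37 and 14.06 without LPS and 8.89 and 8.75 with it. *Irf2bp2*, a co-repressor, read 14.15 and 13.98 without LPS and 9.13 and 9.0 with it. Both LPS arrays lay below both untreated arrays for each of the 3. The differences were −5.64 ± 0.23 (adjusted p = 0.00289) for *Sesn1*, −5.40 ± 0.36 (adjusted p = 0.00476) for *Lyl1* and −5.0 ± 0.17 (adjusted p = 0.00258) for *Irf2bp2*. The remaining ones were *Fam214a* (−5.71 ± 0.32), the chemokine receptor *Cxcr4* (−5.01 ± 0.67), the CD300 family receptor *Cd300lb* (−4.74 ± 0.23), *AU022793* (−4.70 ± 0.18), the S phase factor *E2f2* (−4.61 ± 0.22), the mRNA decay factor *Zfp36l2* (−4.48 ± 0.26) and the SLC26 anion transporter family member *Slc26a11* (−4.38 ± 0.42).

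Other genes passed from background to signal, or the reverse, and for them the array gives only a bound. A total of 175 genes were well above background on both LPS arrays and on neither untreated array, and 140 of them rose, 43 by at least 10-fold. The 5 highest bounds were those of the chemokine *Cxcl9* (at least 877-fold), the aggrecanase *Adamts4* (at least 558-fold), the adhesion ligand *Vcam1* (at least 492-fold), the endothelin precursor *Edn1* (at least 448-fold) and the serpin *Serpina3f* (at least 149-fold). In the other direction 628 genes were lost from detection and 278 of them fell, 13 by at least 10-fold. *Angptl4*, an inhibitor of lipoprotein lipase, read 11.42 and 10.77 on the untreated arrays and 4.34 and 4.51 on the LPS arrays. *Bmf*, a BH3-only activator of apoptosis, read 10.16 and 9.86 without LPS and 1.96 and 2.33 with it. Both were dim on the LPS arrays alone, and they were at least 97.5-fold and at least 46-fold lower with LPS (adjusted p = 0.00729 and adjusted p = 0.00283). The bounds for *Sox4*, *Lpin1* and *Frat1* were at least 29.8-fold, at least 16.9-fold and at least 16.8-fold lower. *Lpin1* (1 of 2 probes) was called by part of its probes.

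The genes were then described by their place in the response, starting with sequence. The window from 250 bases before to 50 bases after the annotated start of a gene was searched on both strands for a κB motif, written GGGA followed by NN and TTCC with N any base, the form of site bound by NF-κB dimers, and for an ISRE motif, GAAA followed by NN and GAAA, the form of element bound by interferon regulatory factors and ISGF3. Of 22221 genes, 14563 had exactly 1 promoter in the RefSeq table of the GRCm38.p6 build, 1.39% of these held the κB motif and 3.47% the ISRE motif. The κB motif was present in 2.29% of raised, 1.29% of lowered and 1.31% of other genes, and the ISRE motif in 8.29%, 2.05% and 3.22%. Among the 123 genes that rose by 4 or more, 11 (8.94%) held the κB motif and 20 (16.3%) the ISRE motif. The κB share did not climb steadily with the size of the rise, with 1.17% of genes that rose by less than 1, 2.11% by 1 to 2 and 1.22% by 2 to 4, whereas the ISRE shares in these bins were 5.25%, 5.92% and 11.9%. A motif match is a description of letters in a window, and occupancy by a factor was not measured.

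**Figure D2:**
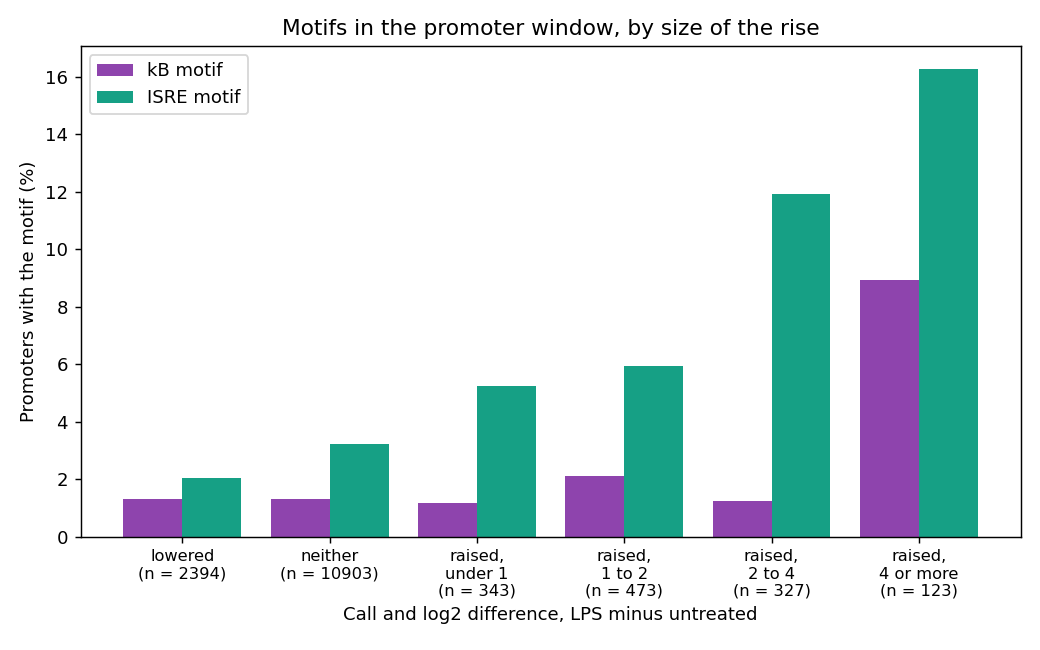
Share of promoters with the κB motif (purple) and the ISRE motif (green), in percent, for lowered genes, genes not called, and raised genes binned by their log2 difference, with the number of promoters below each pair of bars. The κB share is 8.94% and the ISRE share 16.3% in the bin of genes that rose by 4 or more, against 1.31% and 3.22% of genes not called, and in the bin of 2 to 4 they are 1.22% and 11.9%.

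The stretches that follow are from promoters of chemokine and interferon response genes that rose by between 5.82 and 9.86 on the log2 scale, and show how alike the matches are in neighboring genes. Capitals mark the motif matches, on either strand, and sequences run 5′ to 3′ on the strand of the gene.
Cxcl1 promoter, chr5:90891145-90891214, + strand: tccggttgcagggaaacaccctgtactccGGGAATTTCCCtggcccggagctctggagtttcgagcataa
Cxcl3 promoter, chr5:90785999-90786068, + strand: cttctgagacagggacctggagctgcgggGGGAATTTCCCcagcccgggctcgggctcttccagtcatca
Cxcl2 promoter, chr5:90903773-90903842, + strand: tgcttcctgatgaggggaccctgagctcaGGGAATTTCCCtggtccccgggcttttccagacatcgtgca
Cxcl10 promoter, chr5:92349025-92349114, - strand: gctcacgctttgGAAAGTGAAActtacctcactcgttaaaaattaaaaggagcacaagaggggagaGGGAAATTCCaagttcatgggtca
Gbp5 promoter, chr3:142496754-142496878, + strand: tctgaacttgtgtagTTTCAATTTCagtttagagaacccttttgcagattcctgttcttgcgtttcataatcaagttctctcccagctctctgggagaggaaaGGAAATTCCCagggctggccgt
Ifit1 promoter, chr19:34640774-34640828, + strand: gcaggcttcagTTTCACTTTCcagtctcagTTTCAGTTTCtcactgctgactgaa
The 3 neutrophil-attracting chemokine genes on chromosome 5 carry the same GGGAATTTCCC, which is a κB match on both strands and begins 71, 73 and 97 bases before the start in *Cxcl1*, *Cxcl3* and *Cxcl2*. *Cxcl10* and *Gbp5* hold 1 match of each kind, and *Ifit1* holds 2 ISRE matches and 0 κB matches.

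Among the 23 genes of the TLR4 complex and its signaling, 11 rose and 4 fell, with a median of 0.52, or 0.31 relative to all genes with 75th percentile or spike-in scaling. The shares, 47.8% and 17.4%, stand beside 14.4% and 27.4% of detected genes. Most of the rises lay downstream of the receptor. *Myd88*, the adaptor shared by nearly all Toll-like receptors, read 12.12 and 11.87 on the untreated arrays and 14.20 and 13.79 on the LPS arrays. *Map3k8*, the kinase Tpl2 that feeds the ERK route, read 8.98 and 8.72 without LPS and 11.48 and 11.65 with it. Neither overlapped between groups, and they rose by 2.0 ± 0.18 (adjusted p = 0.00734) and 2.72 ± 0.17 (adjusted p = 0.00426). *Ikbke* (2.61 ± 0.21), the IKK-related kinase, and *Cd14* (1.69 ± 0.12), the co-receptor that hands LPS to MD-2, rose as well, as did *Ticam2* (1.65 ± 0.32), the bridging adaptor TRAM, and *Irak3* (1.80 ± 0.21), an inhibitory member of the IRAK family. *Ticam1*, which encodes TRIF, differed by 0.062 ± 0.13 (adjusted p = 0.885) and *Ly96*, which encodes MD-2, by 0.52 ± 0.11 (adjusted p = 0.0517). *Tlr4* itself read 11.63 and 11.49 on the untreated arrays and 10.78 and 10.74 on the LPS arrays with the brighter of its 2 probes, at chr4:66503470-66503529 of the mm9 build, a fall of 0.80 ± 0.14 (adjusted p = 0.0305), whereas its second probe differed by 0.0064 and was not called. *Tab1*, a partner of TAK1, fell by 2.11 ± 0.079 (adjusted p = 0.00280), and *Traf3* (−0.48 ± 0.097) and *Irak1* (−0.40 ± 0.074) fell too. Of the 11 raised genes, 6, 6, 7 and 7 stayed past the threshold with the arrays left out in turn, but of the 4 lowered ones only 1, 1, 1 and 1 did, and 1 did under 75th percentile and under spike-in scaling. Of the 11 other Toll-like receptors, *Tlr2* (3.64 ± 0.16), for bacterial lipoproteins, and *Tlr3* (3.27 ± 0.32), for double-stranded RNA, rose most, with *Tlr1*, *Tlr6* and *Tlr8* also raised, and *Tlr13* (−1.84 ± 0.12), for bacterial ribosomal RNA, fell. Of these 5 rises 2, 1, 2 and 3 kept the call with the arrays left out. *Irak1* (1 of 3 probes) and *Tlr8* (1 of 2 probes) were called by part of their probes.

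All 5 NF-κB subunit genes rose, with a median of 3.16 (2.10 with normexp background correction), and all 5 stayed past the threshold with any of the 4 arrays left out. *Nfkb1*, which encodes p105 and p50, read 9.58 and 9.54 on the untreated arrays and 12.72 and 12.71 on the LPS arrays. *Nfkb2*, for p100 and p52, read 11.02 and 10.72 without LPS and 14.50 and 14.22 with it. *Rela*, for p65, read 14.75 and 14.70 without LPS and 15.73 and 15.69 with it. No untreated value overlapped an LPS value, and the rises were 3.16 ± 0.10 (adjusted p = 0.00253), 3.49 ± 0.15 (adjusted p = 0.00304) and 0.99 ± 0.061 (adjusted p = 0.00423). *Relb* rose by 2.18 ± 0.10, and *Rel*, which was dim without LPS, was at least 4.76-fold higher. *Relb* (2 of 3 probes) was called by part of its probes.

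Inhibitors of NF-κB rose beside its subunits. Of 21 genes of IκB proteins and feedback, 14 rose and 3 fell, with a median of 2.20, and 13, 13, 13 and 13 of the 14 stayed past the threshold with the arrays left out. *Nfkbia*, for IκBα, the inhibitor that is degraded and made anew in each round of signaling, read 13.86 and 13.49 on the untreated arrays and 17.33 and 17.39 on the LPS arrays. *Tnfaip3*, for the ubiquitin-editing enzyme A20, read 10.60 and 10.71 without LPS and 15.53 and 15.56 with it. *Nfkbiz*, for the nuclear IκBζ that is needed for a second wave of NF-κB targets, read 7.44 and 6.72 without LPS and 12.56 and 12.67 with it. The groups did not overlap in any of the 3, which rose by 3.68 ± 0.14 (adjusted p = 0.00281), 4.89 ± 0.084 (adjusted p = 0.00155) and 5.53 ± 0.26 (adjusted p = 0.00324). *Nfkbie* (4.35 ± 0.17), for IκBε, *Traf1* (3.59 ± 0.19) and *Zc3h12a* (3.25 ± 0.14), the ribonuclease regnase-1 that degrades cytokine mRNAs, rose too. The lowered members were the deubiquitinases *Otulin* (−1.03 ± 0.097) and *Cyld* (−0.99 ± 0.19), and *Tnfaip8* (−0.57 ± 0.067), of which 0, 0, 1 and 2 kept the call with the arrays left out, 1 did with the mean of a gene's probes, and the dimmer probe of *Cyld* differed by 0.54 and was not called. *Cyld* (1 of 2 probes) and *Tnfaip8* (1 of 2 probes) were called by part of their probes.

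Of 16 AP-1 and ATF genes 5 (31.2%) rose and 5 (31.2%) fell, beside 14.4% and 27.4% of detected genes, and 4, 4, 4 and 5 of the rises and 1, 1, 2 and 1 of the falls kept the call with the arrays left out, as 3 of the falls did with the mean of a gene's probes. *Batf2* (4.69 ± 0.26), *Maff* (4.26 ± 0.24) and *Batf* (2.64 ± 0.13) rose most, with *Junb* (2.07 ± 0.23), while *Fos* (−1.58 ± 0.17) and *Fosl2* (−1.26 ± 0.20) fell. *Fos* read 11.09 and 10.98 on the untreated arrays and 9.54 and 9.38 on the LPS arrays, so the untreated arrays were the higher ones. Of the 16 early genes of the EGR, NR4A, IER and Myc groups, 3 (18.8%) rose, near the share of detected genes, among them *Mxd1* (3.44 ± 0.20), a Myc antagonist, and 2 (12.5%) fell, *Klf10* (−3.02 ± 0.24) and *Egr2* (−1.69 ± 0.26), of which 2, 2, 3 and 3 of the rises and 2, 2, 1 and 1 of the falls kept the call. *Fosl2* (1 of 2 probes) was called by part of its probes.

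Cytokine genes held the largest difference of the data, that of *Il6* (11.86 ± 0.57, adjusted p = 0.00326). Of 34 interleukins and TNF superfamily ligands, 24 rose and 2 fell, with a median of 2.82 against −0.013 over all genes, and 18, 17, 15 and 17 of the 24 kept the call with the arrays left out. *Il1b* (10.03 ± 0.73) and *Il12b* (7.82 ± 0.96) came next among those measured in both groups, and several ligands outside these classic inflammatory cytokines rose too. *Il27*, for the p28 chain of IL-27, read 8.83 and 8.58 on the untreated arrays and 14.69 and 14.68 on the LPS arrays. *Tnfsf15*, for the ligand TL1A, read 7.18 and 6.75 without LPS and 14.29 and 15.01 with it. *Tnfsf10*, for the death ligand TRAIL, read 5.58 and 5.17 without LPS and 12.57 and 12.65 with it. Each rose without overlap, by 5.98 ± 0.45 (adjusted p = 0.00558), 7.68 ± 0.57 (adjusted p = 0.00535) and 7.23 ± 0.46 (adjusted p = 0.00438). *Tnfsf9*, for the costimulatory ligand 4-1BBL, rose by 5.33 ± 0.15, and *Il15*, which supports NK cells, by 4.81 ± 0.36.

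A further 5 ligands came up from background, *Tnfsf4* (OX40L, at least 142-fold), *Il1a* (at least 139-fold), *Il19* (at least 63.9-fold), *Lta* (lymphotoxin α, at least 13.6-fold) and *Il33* (at least 7.68-fold), all higher with LPS. Among those that restrain inflammation, *Il10* read 6.23 and 5.60 on the untreated arrays and 9.39 and 8.41 on the LPS arrays, *Il1rn*, the IL-1 receptor antagonist, read 9.06 and 10.22 without LPS and 11.65 and 11.70 with it and *Il18bp*, which binds IL-18, read 10.0 and 9.42 without LPS and 12.49 and 12.13 with it. The LPS arrays were the higher ones for each, and the differences were 2.98 ± 0.44 (adjusted p = 0.0212), 2.04 ± 0.42 (adjusted p = 0.0463) and 2.59 ± 0.25 (adjusted p = 0.00863). The ligands that fell were *Il16* (−3.76 ± 0.18), a ligand of CD4, and *Tnfsf14* (−1.73 ± 0.33), known as LIGHT, and 1, 1, 1 and 1 of these 2 kept the call with the arrays left out.

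Of 28 CC and CXC chemokines, 17 rose and 0 fell, with a median of 4.22, and 14, 14, 13 and 13 of them kept the call with the arrays left out. The median was lower under other corrections, at 1.82 with normexp background correction and 2.90 with the deposited values. The neutrophil attractants whose promoters are shown above were among the 4 largest rises of the chemokines measured in both groups. *Cxcl1* read 4.57 and 3.59 on the untreated arrays and 13.77 and 14.12 on the LPS arrays. *Cxcl2* read 5.27 and 4.09 without LPS and 13.62 and 13.73 with it. *Cxcl3* read 4.76 and 3.79 without LPS and 12.54 and 13.44 with it. Both LPS arrays were far above both untreated arrays, with differences of 9.86 ± 0.40 (adjusted p = 0.00289), 8.99 ± 0.43 (adjusted p = 0.00323) and 8.71 ± 0.62 (adjusted p = 0.00507). The monocyte attractants *Ccl12* (7.57 ± 0.26), *Ccl7* (5.65 ± 0.84) and *Ccl2* (4.82 ± 0.82) and the chemokines *Ccl5* (5.31 ± 0.26), *Ccl4* (4.90 ± 0.17) and *Ccl3* (4.50 ± 0.21) rose. *Ccl17* and *Ccl22*, ligands of the receptor CCR4 of T cells, were at least 57.5-fold and at least 6.65-fold higher. *Cxcl11*, a ligand of the same receptor as *Cxcl9* and *Cxcl10*, differed by −0.42 ± 0.24 (adjusted p = 0.376), and *Cxcl5*, not well above background on either untreated array, missed the threshold (adjusted p = 0.0890). On the untreated side *Cxcl1*, *Cxcl2* and *Cxcl3*, and likewise *Ifnb1*, *Tgtp1*, *Slc7a2*, *Ptgs2*, *Ptx3* and *Pdgfrb*, were well above background on 1 of 2 arrays, as was *Chac1* on the LPS side. The homeostatic chemokines *Cxcl12* and *Cxcl13* were not well above background on any of the 4 arrays, and 5 of 20 chemokine promoters held the κB motif.

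**Figure D3:**
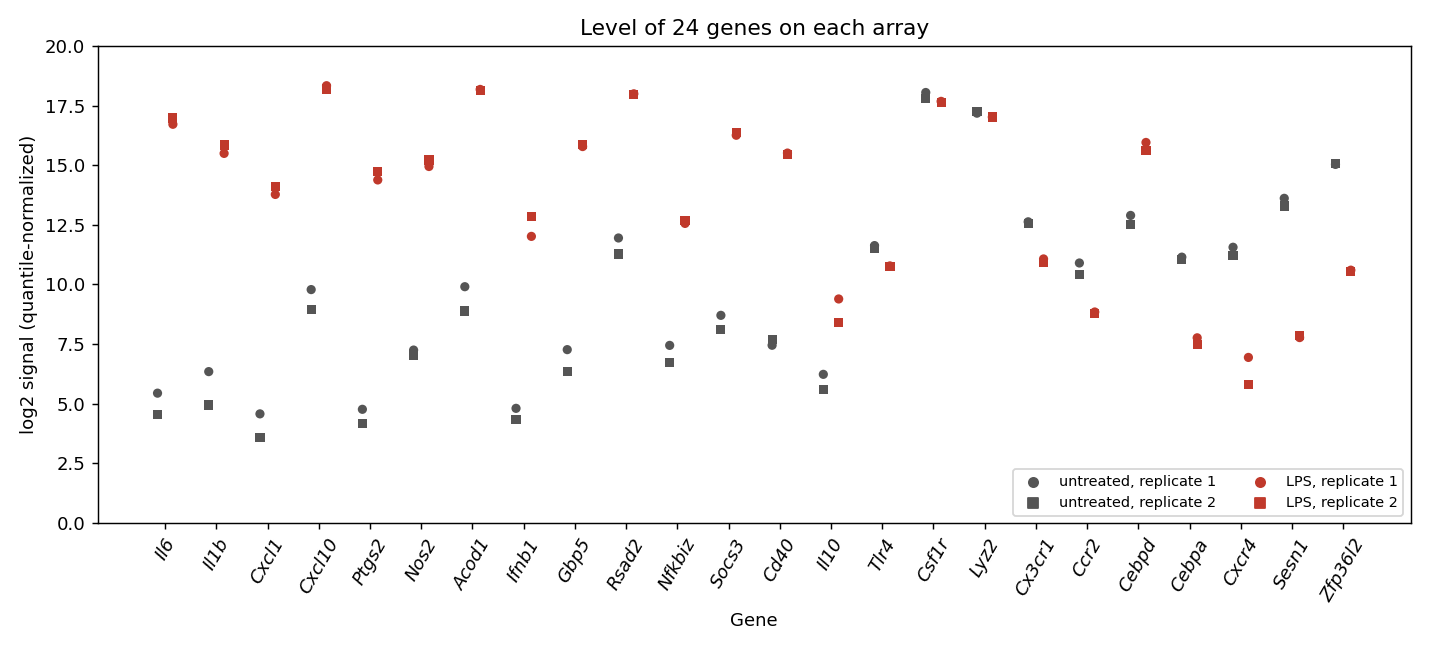
Quantile-normalized log2 signal (vertical axis) of 24 genes on each of the 4 arrays, gray for untreated and red for LPS, circles for replicate 1 and squares for replicate 2; levels may be compared within a gene only. *Il6*, *Cxcl1* and *Gbp5* lie far higher on both LPS arrays, *Csf1r* and *Lyz2* lie close together on all 4 arrays, and *Cxcr4*, *Sesn1* and *Zfp36l2* lie lower on both LPS arrays.

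Of 19 colony-stimulating and growth factors, 7 (36.8%) rose and 4 (21.1%) fell, beside 14.4% and 27.4% of detected genes. *Csf1*, the growth factor of macrophages themselves, rose by 4.99 ± 0.29 (adjusted p = 0.00395), *Inhba*, for activin A, by 4.54 ± 0.25 (adjusted p = 0.00377), and *Csf2*, for GM-CSF, was at least 12-fold higher. *Vegfa*, the angiogenic factor, read 9.34 and 9.47 on the untreated arrays and 6.70 and 6.59 on the LPS arrays. The untreated arrays were the higher ones, and it fell by 2.76 ± 0.36 (adjusted p = 0.0162), as *Pdgfb* (−1.64 ± 0.22), *Pdgfa* (−1.44 ± 0.15) and *Vegfb* (−0.67 ± 0.13) also did. With the arrays left out in turn, 4, 5, 6 and 6 of the 7 rises and 2, 0, 1 and 0 of the 4 falls kept the call. *Csf1* (3 of 4 probes) and *Vegfa* (1 of 2 probes) were called by part of their probes.

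Genes of the interferon arm rose from cytokine to effectors. *Ifnb1* read 4.80 and 4.34 on the untreated arrays and 12.01 and 12.85 on the LPS arrays, and rose by 7.86 ± 0.36 (adjusted p = 0.00317) with no overlap. Of the 12 genes of type I interferon and JAK-STAT signaling, 8 rose and 0 fell. *Jak2*, a kinase of cytokine receptors, read 10.27 and 10.25 on the untreated arrays and 14.25 and 14.14 on the LPS arrays. It rose by 3.94 ± 0.27 (adjusted p = 0.00493) without overlap, beside *Stat5a* (3.16 ± 0.21), *Stat3* (1.10 ± 0.17), *Stat2* (1.04 ± 0.13) and *Tyk2* (0.98 ± 0.10). Of these 8 rises, 5, 4, 3 and 6 kept the call with the arrays left out. Of 9 interferon regulatory factors, 5 rose and 0 fell. *Irf1* rose by 3.90 ± 0.25 (adjusted p = 0.00446) and *Irf7*, the amplifier of interferon induction, by 1.98 ± 0.34 (adjusted p = 0.0301), whereas *Irf3* (−0.60 ± 0.14, adjusted p = 0.0666) and *Irf9* (0.23 ± 0.12, adjusted p = 0.339), both held ready in resting cells, were not called. Only 1, 1, 2 and 2 of the 5 regulatory factor rises stayed past the threshold with the arrays left out.

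Of 50 interferon-stimulated antiviral genes, 43 (86%) rose and 0 fell, beside 14.4% and 27.4% of detected genes. Their median was 2.28, and 39, 35, 30 and 34 of the 43 kept the call with the arrays left out. *Rsad2*, for viperin, which makes a chain-terminating nucleotide, read 11.95 and 11.27 on the untreated arrays and 17.99 and 17.98 on the LPS arrays. *Cmpk2*, its neighbor in the genome and a nucleotide kinase, read 10.74 and 10.21 without LPS and 17.08 and 17.13 with it. *Mx1*, a dynamin-like GTPase, read 10.19 and 9.47 without LPS and 15.78 and 15.88 with it. The groups did not overlap in any of them. They rose by 6.38 ± 0.33 (adjusted p = 0.00349), 6.63 ± 0.34 (adjusted p = 0.00343) and 6.0 ± 0.34 (adjusted p = 0.00390). The RNA-binding effectors *Ifit1* (5.82 ± 0.29), *Ifit2* (4.96 ± 0.29) and *Ifit3* (4.07 ± 0.41), the ubiquitin-like modifier *Isg15* (3.80 ± 0.27) and its protease *Usp18* (3.58 ± 0.23), and the cytosolic RNA sensors *Ifih1* (4.0 ± 0.31) and *Ddx58* (2.14 ± 0.21) rose. At the low end stood *Bst2* (0.51 ± 0.088), for tetherin, and the oligoadenylate synthetase *Oas1a* (0.85 ± 0.11). The ISRE motif was found in 15 of 34 promoters of the list (44.1%). *Oas1a* (1 of 2 probes) was called by part of its probes.

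The interferon-inducible GTPases had the highest of the 48 list medians. Of 17 genes of the GBP and IRG families, which attack the membranes around intracellular pathogens, 16 rose and 0 fell, with a median of 4.68, and 16, 15, 10 and 13 kept the call with the arrays left out. After *Gbp5*, the largest rises were those of *Gbp4* (6.50 ± 0.65, adjusted p = 0.00905) and *Gbp2* (6.36 ± 0.39, adjusted p = 0.00425). Of the IRG family, *Iigp1* (5.32 ± 0.43), *Tgtp1* (4.75 ± 0.54), *Igtp* (3.93 ± 0.34), *Irgm2* (3.02 ± 0.29) and *Irgm1* (2.85 ± 0.22) rose. All 8 promoters of the list that could be read held an ISRE match. Members of these families, like *Tgtp1* and *Tgtp2*, are near-identical in places, and a probe of 1 may also read RNA of another.

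Feedback inhibitors of cytokine signaling rose beside the cytokines. Of 35 genes of the SOCS, DUSP and related groups, 17 (48.6%) rose and 7 (20%) fell, beside 14.4% and 27.4% of detected genes, and 11, 11, 9 and 10 of the 17 and 4, 4, 5 and 5 of the 7 kept the call with the arrays left out. *Socs3*, the brake on IL-6 receptors, read 8.70 and 8.10 on the untreated arrays and 16.25 and 16.37 on the LPS arrays. *Socs1*, the brake on interferon receptors, read 7.66 and 7.52 without LPS and 15.02 and 15.05 with it. *Cish*, of the same family, read 6.07 and 6.26 without LPS and 12.56 and 13.42 with it. None of these overlapped, with rises of 7.91 ± 0.27 (adjusted p = 0.00261), 7.45 ± 0.37 (adjusted p = 0.00338) and 6.83 ± 0.51 (adjusted p = 0.00539). Of the phosphatases that switch off MAP kinases, *Dusp2* (5.53 ± 0.13) and *Dusp16* (3.18 ± 0.18) rose and *Dusp14* was at least 14.7-fold higher, while *Dusp6* (−1.75 ± 0.14) and *Dusp3* (−1.69 ± 0.12) fell.

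A split was seen within the TTP family, whose proteins bind AU-rich elements in cytokine mRNAs and promote their decay. *Zfp36*, for TTP itself, read 7.30 and 7.01 on the untreated arrays and 9.70 and 9.56 on the LPS arrays. *Zfp36l1* read 12.83 and 12.61 without LPS and 9.05 and 8.88 with it. *Zfp36l2* read 15.03 and 15.07 without LPS and 10.60 and 10.55 with it. The LPS arrays were the higher ones for *Zfp36* and the lower ones for its relatives. *Zfp36* rose by 2.47 ± 0.15 (adjusted p = 0.00418), *Zfp36l1* fell by 3.75 ± 0.44 (adjusted p = 0.0123) and *Zfp36l2* fell by 4.48 ± 0.26 (adjusted p = 0.00391). *Inpp5d*, for the lipid phosphatase SHIP1, also fell (−2.14 ± 0.080).

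In pathways of effector function some genes rose, while others were not called or fell. Of the 12 genes of nitric oxide, arginine and itaconate metabolism, 6 rose and 1 fell. *Nos2* read 7.25 and 7.03 on the untreated arrays and 14.94 and 15.22 on the LPS arrays, and *Slc7a2*, the arginine transporter that feeds it, read 3.92 and 4.81 without LPS and 9.52 and 9.50 with it. With *Gch1*, for the first enzyme of its cofactor tetrahydrobiopterin, they rose by 7.94 ± 0.48, 5.15 ± 0.39 and 2.99 ± 0.099. In the prostaglandin and leukotriene pathway *Ptgs2*, for cyclooxygenase-2, read 4.76 and 4.16 on the untreated arrays and 14.38 and 14.74 on the LPS arrays. It rose by 10.10 ± 0.34 (adjusted p = 0.00258), and 5 of the 18 genes of the pathway fell (27.8%), a share near the 27.4% of detected genes, among them the prostaglandin-degrading *Hpgd* (−1.16 ± 0.13) and *Alox5ap* (−0.63 ± 0.087), for the 5-lipoxygenase activating protein. Of the 18 genes, 2 rose in all. *Ptges* was not called by its brighter probe (−0.23), but its other probe was raised by 5.65, so no direction is given for it. The thromboxane synthase gene *Tbxas1* is counted among the 5 falls by its brighter probe (−0.70 ± 0.11). Its other probe differed by 1.10, not called, so no direction is given for it either. Of those 5 falls, 1, 1, 0 and 1 kept the call with the arrays left out. Of the NADPH oxidase genes, *Nox1* (4.09 ± 0.14) and *Cybb* (1.38 ± 0.10) rose. *Ch25h*, which makes the antiviral lipid 25-hydroxycholesterol, rose by 7.39 ± 0.30 (adjusted p = 0.00290).

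Secreted defense proteins and proteases followed. Of 26 antimicrobial, acute-phase and complement genes, 8 rose and 0 fell, among them the pentraxin *Ptx3* (7.51 ± 0.88, adjusted p = 0.0125), complement factor B *Cfb* (4.42 ± 0.35, adjusted p = 0.00615), the complement component *C3* (3.25 ± 0.24) and *Lcn2*, for the siderophore-binding lipocalin 2 (3.09 ± 0.29). *Hamp*, for hepcidin, was at least 3.23-fold higher. Of 26 protease, inhibitor and coagulation genes, 11 rose and 3 fell. The plasminogen activator inhibitor *Serpinb2* (7.71 ± 0.29) rose beside the activator *Plat* (at least 19.4-fold higher) and the urokinase receptor *Plaur* (2.38 ± 0.30). Tissue factor, *F3*, rose by 2.80 ± 0.41 (adjusted p = 0.0211), while *Thbd*, for the anticoagulant thrombomodulin, read 9.52 and 9.19 on the untreated arrays and 6.63 and 5.73 on the LPS arrays. The untreated arrays were the higher ones, and *Thbd* fell by 3.17 ± 0.35 (adjusted p = 0.0107). With the arrays left out in turn, 8, 7, 5 and 5 of the 8 antimicrobial rises, 9, 7, 7 and 8 of the 11 protease list rises and 0, 0, 1 and 1 of its 3 falls kept the call. Of the inflammasome genes, 6 of 16 rose, with *Nlrp3* (5.04 ± 0.24), *Mefv* (3.81 ± 0.62) and *Casp4* (3.34 ± 0.21), the LPS-binding caspase-11, in the lead, and 4 fell (25%, near the share of detected genes), led by *Nlrp1b* (−2.78 ± 0.27) and the ATP receptor *P2rx7* (−2.03 ± 0.063), with *Txnip* (−1.91 ± 0.22), while 4, 4, 3 and 4 of these rises and 1, 2, 2 and 2 of the falls kept the call. *F3* (1 of 2 probes), *P2rx7* (2 of 3 probes) and *Txnip* (1 of 2 probes) were called by part of their probes.

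Of 47 cytokine and chemokine receptor genes, 14 (29.8%) rose and 12 (25.5%) fell, beside 14.4% and 27.4% of detected genes, so that the share of falls was near that of all detected genes. The median was 0.12, or −0.0064 relative to all genes with 75th percentile or spike-in scaling. Under these scalings the list medians themselves were 0.31 and −0.10, higher than the −0.015 and −0.43 of genes well above background on all 4 arrays. *Cxcr4*, the receptor for CXCL12, read 11.56 and 11.22 on the untreated arrays and 6.94 and 5.81 on the LPS arrays. *Il6ra* read 13.17 and 12.77 without LPS and 10.14 and 9.69 with it. *Ccr2*, which brings monocytes out of the marrow, read 10.90 and 10.43 without LPS and 8.84 and 8.76 with it. Each was lower on both LPS arrays, with differences of −5.01 ± 0.67 (adjusted p = 0.0168), −3.06 ± 0.27 (adjusted p = 0.00693) and −1.86 ± 0.20 (adjusted p = 0.0108). *Cx3cr1* (−1.59 ± 0.087) and *Il6st* (−1.44 ± 0.19), the signaling chain gp130, fell too. The formyl peptide receptors *Fpr1* (5.45 ± 0.79) and *Fpr2* (5.70 ± 0.55), the atypical receptor *Ccrl2* (5.36 ± 0.17) and the death receptor *Fas* (4.11 ± 0.35) rose. With the arrays left out in turn, 3, 3, 3 and 4 of the 12 falls and 10, 9, 6 and 8 of the 14 rises kept the call.

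Among genes for contact with T cells, the lists differed in the share of members that rose. Of 30 costimulatory and adhesion genes, 18 rose and 4 were called as lowered by their brightest probe, with a median of 2.03, and 13, 12, 12 and 13 of the rises and 0, 1, 1 and 0 of the falls kept the call with the arrays left out. Beside *Cd69* (10.16 ± 0.55), an early activation marker, and *Cd40*, the adhesion ligand *Icam1* (5.42 ± 0.18, adjusted p = 0.00258), the checkpoint ligand *Cd274* (3.58 ± 0.13), known as PD-L1, *Cd83* (3.20 ± 0.11) and *Cd86* (2.15 ± 0.17) rose. *Cd80*, the partner of *Cd86*, read 11.41 and 11.09 on the untreated arrays and 10.54 and 10.55 on the LPS arrays with the brighter of its 2 probes, a difference of −0.71 ± 0.13 (adjusted p = 0.0347), while the other probe was raised by 2.78, so no direction is given for this gene. The probes of *Itga6* were likewise called in opposite directions (−1.47 and 1.39), and 1 of the 4 lowered genes kept the call with the mean of a gene's probes, while normexp background correction gave 8 lowered genes. Of 21 class I pathway genes 11 rose and 2 fell, whereas 0 of 13 class II pathway genes rose. The class I rises included the peptide transporter *Tap1* (2.41 ± 0.27), its activator *Nlrc5* (2.23 ± 0.16) and the immunoproteasome subunits *Psmb10* (1.38 ± 0.091), *Psmb9* (1.11 ± 0.18) and *Psmb8* (0.71 ± 0.13). The falls were those of *Canx* (−0.44 ± 0.068) and *Calr* (−0.35 ± 0.066), of which 0 kept the call under 75th percentile or spike-in scaling. The class I rises were small, and 5, 2, 4 and 7 of 11 kept the call with the arrays left out. In class II, *H2-Ab1* differed by 0.60 ± 0.38 (adjusted p = 0.448) and *Cd74* by 0.45 ± 0.36 (adjusted p = 0.533), and the class II activator *Ciita* was not well above background on either LPS array. *Ifi30*, a lysosomal thiol reductase, fell (−0.57 ± 0.12), a call lost with any of the 4 arrays left out, under both other scalings, with the deposited values, with only the 4 arrays and with the replicate block.

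Scavenger and phagocytic receptors had a median of −0.052, with 7 of 40 raised and 8 lowered (17.5% and 20%), beside 14.4% and 27.4% of detected genes. *Clec4e*, the receptor Mincle for mycobacterial cord factor, rose by 6.08 ± 0.13 (adjusted p = 0.00200), *Olr1*, the lectin-like receptor for oxidized LDL, was at least 38.9-fold higher, and *Clec5a* was at least 7.91-fold higher. The falls, a smaller share than among detected genes, were led by *Trem1* (−1.64 ± 0.25) and *Cd300lf* (−1.31 ± 0.13). *Stab1* (−1.28 ± 0.16), *Lrp1* (−1.17 ± 0.17), *Sirpa* (−0.88 ± 0.17) and *Trem2* (−0.72 ± 0.11), receptors for debris, lipoproteins and self signals, fell, and 4, 4, 4 and 4 of the 7 rises and 1, 0, 2 and 2 of the 8 falls kept the call with the arrays left out. *Lrp1* (2 of 3 probes) and *Cd300lf* (2 of 3 probes) were called by part of their probes.

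Of 30 myeloid transcription factors 9 (30.0%) rose and 8 (26.7%) fell, the latter near the 27.4% of detected genes, and 4, 3, 4 and 4 of the rises and 5, 3, 5 and 5 of the falls kept the call with the arrays left out. *Cebpa*, of the C/EBP family, read 11.14 and 11.05 on the untreated arrays and 7.76 and 7.47 on the LPS arrays, and its relative *Cebpd* read 12.89 and 12.52 without LPS and 15.95 and 15.63 with it. The untreated arrays were the higher ones for *Cebpa*, and the lower ones for *Cebpd*. The differences were −3.48 ± 0.24 (adjusted p = 0.00494) for *Cebpa* and 3.08 ± 0.20 (adjusted p = 0.00439) for *Cebpd*. *Tfeb*, a lysosomal regulator, differed by −3.35 ± 0.30, although its second probe differed by −0.00023 and was not called, and its relative *Tfec* rose by 4.15 ± 0.46. *Spi1*, for PU.1, rose by 1.34 ± 0.18 (adjusted p = 0.0162), and *Gfi1*, a repressor, was at least 114-fold higher.

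Of 31 genes of nuclear receptors, lipid efflux and storage, 3 rose and 7 (22.6%) fell, near the 27.4% of detected genes. The median was −0.60, or −0.41 relative to all genes with either other scaling, and 1, 1, 1 and 1 of the rises and 4, 3, 6 and 6 of the falls kept the call with the arrays left out. With 75th percentile and spike-in scaling the list medians themselves were −0.093 and −0.51. Those of genes well above background on all 4 arrays were −0.015 and −0.43, and −0.24 after quantile normalization. *Pparg* read 12.40 and 12.50 on the untreated arrays and 10.19 and 10.22 on the LPS arrays. It was lower on both LPS arrays and fell by 2.25 ± 0.097 (adjusted p = 0.00304), and so did *Rxrb*, of the family of its partners (−1.57 ± 0.13), while *Ppard* was lowered by 1 of its 2 probes only (−2.20 ± 0.20), the other differing by 0.31. Of 30 cholesterol and fatty acid synthesis genes, 9 (30.0%) fell, near the share of detected genes, and 1 rose. The falls were led by the fatty acid genes *Fads1* (−1.34 ± 0.15) and *Fasn*, which was at least 1.92-fold lower. *Fasn* was not well above background on either LPS array. Enzymes of sterol synthesis stood among the falls, with *Msmo1* (−1.31 ± 0.19), *Mvd* (−1.19 ± 0.19), *Lss* (−1.02 ± 0.14) and *Dhcr7* (−0.95 ± 0.17), and *Insig1*, which restrains sterol synthesis, was the raised one (0.70 ± 0.13), a call lost with any of the 4 arrays left out and with spike-in scaling. Only 2, 1, 1 and 4 of the 9 falls kept the call with the arrays left out.

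Genes of DNA replication were mostly lowered. Of 47 genes of DNA replication and nucleotide synthesis, 26 (55.3%) fell, against 27.4% of detected genes, and 2 rose, with a median of −0.93. *E2f2*, an activator of S phase genes, read 11.48 and 11.76 on the untreated arrays and 6.99 and 7.03 on the LPS arrays. *Cdt1*, which licenses origins, read 13.22 and 13.41 without LPS and 11.43 and 11.13 with it. *Mcm3*, of the replicative helicase, read 12.46 and 12.61 without LPS and 10.91 and 11.08 with it. The LPS arrays were the lower ones for each, and the differences were −4.61 ± 0.22 (adjusted p = 0.00321), −2.04 ± 0.25 (adjusted p = 0.0143) and −1.54 ± 0.13 (adjusted p = 0.00639). *Cdc6*, the other licensing factor, was at least 5.66-fold lower. *Rrm2* (−1.65 ± 0.31), of ribonucleotide reductase, and the polymerase subunits *Pole2* (−2.21 ± 0.44) and *Pold1* (−1.71 ± 0.13) fell with them. The rises were those of *Ccne1* (1.28 ± 0.19) and *Tyms* (1.20 ± 0.21), of which 0, 0, 0 and 0 kept the call with the arrays left out and 0 with spike-in scaling. Of the 26 falls, 11, 10, 14 and 18 kept the call with the arrays left out, and 25 and 22 did so under 75th percentile and spike-in scaling. No κB or ISRE motif was found in 33 promoters of this list (0 and 0), beside 1.39% and 3.47% of all promoters searched. With shares this low and so few promoters, nothing particular to the list is read from this.

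Of 56 mitosis genes, 10 (17.9%) fell, beside 27.4% of detected genes, and 1 rose (*Pttg1*, 1.29 ± 0.079), although the median of the list was −0.97. The count of falls depended on the processing, with 18 under 75th percentile scaling, 19 under spike-in scaling and 26 with normexp background correction, so no direction is given for the share. *Ccnf* (−3.41 ± 0.42), *Cdc25b* (−2.60 ± 0.26) and *Cdc20* (−1.88 ± 0.30) fell, *Kif18a* was at least 3.52-fold lower, and 6, 1, 3 and 5 of the 10 falls kept the call with the arrays left out. Among cyclins and their inhibitors, the D-type cyclins diverged. *Ccnd1* read 12.52 and 12.94 on the untreated arrays and 10.97 and 11.10 on the LPS arrays, whereas *Ccnd2* read 8.53 and 8.49 without LPS and 13.40 and 13.21 with it. *Ccnd1* fell by 1.69 ± 0.16 (adjusted p = 0.00858) and *Ccnd2* rose by 4.79 ± 0.089 (adjusted p = 0.00184). The inhibitor *Cdkn1a*, for p21, rose (2.49 ± 0.15), and *Cdkn1b*, for p27, fell (−0.92 ± 0.075). Of the 29 genes of that list 5 (17.2%) rose and 8 (27.6%) fell, near the shares of detected genes, and 3, 3, 3 and 3 of the rises and 4, 3, 3 and 4 of the falls kept the call with the arrays left out.

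In the control of cell death, 10 of 25 genes (40%) rose and 3 (12%) fell, beside 14.4% and 27.4% of detected genes. *Cflar*, for the caspase-8 inhibitor cFLIP, rose by 3.84 ± 0.099 (adjusted p = 0.00245), *Bcl2a1d*, a BCL2 relative, by 3.71 ± 0.33 (adjusted p = 0.00710), and *Birc3*, an inhibitor of apoptosis, by 2.79 ± 0.14 (adjusted p = 0.00335). Pro-death genes moved both ways. *Bcl2l11*, for BIM, rose by 2.45 ± 0.095 and *Mlkl*, the effector of necroptosis, by 2.45 ± 0.28, while *Bmf* fell as described above. *Mcl1*, a survival factor, differed by −1.56 ± 0.11 with its brighter probe and by −0.32, not called, with the other. Of the 10 rises 6, 6, 6 and 7 and of the 3 falls 2, 2, 3 and 3 kept the call with the arrays left out.

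Of 36 oxidative and metal stress genes, 10 (27.8%) rose and 4 (11.1%) fell, beside 14.4% and 27.4% of detected genes, and 7, 6, 7 and 8 of the rises and 0, 1, 1 and 1 of the falls kept the call with the arrays left out. *Sod2*, for the mitochondrial superoxide dismutase, read 14.13 and 14.16 on the untreated arrays and 17.42 and 17.42 on the LPS arrays. *Slc40a1*, for the iron exporter ferroportin, read 10.30 and 9.86 without LPS and 7.33 and 7.10 with it. The groups did not overlap in either, and *Sod2* rose by 3.27 ± 0.15 (adjusted p = 0.00319) while *Slc40a1* fell by 2.87 ± 0.33 (adjusted p = 0.0117). *Slc7a11*, the cystine importer, rose by 3.68 ± 0.34 and *Slc39a14*, an iron and zinc importer, by 3.21 ± 0.15. The count of falls in this list was 9 with normexp background correction, 1 with 75th percentile scaling and 2 with spike-in scaling. Of 26 genes of the unfolded protein and integrated stress responses, 8 (30.8%) fell and 3 (11.5%) rose, near the 27.4% and 14.4% of detected genes, although 14 fell with normexp background correction. *Eif2ak3*, for the kinase PERK, fell by 2.90 ± 0.28, and *Trib3* (−2.07 ± 0.22) and *Chac1* (−1.71 ± 0.27), targets of ATF4, fell, whereas *Ppp1r15a*, for GADD34, which ends eIF2α phosphorylation, rose by 2.21 ± 0.37. Of the 8 falls 1, 1, 3 and 4 and of the 3 rises 0, 0, 0 and 1 kept the call with the arrays left out.

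**Figure D4:**
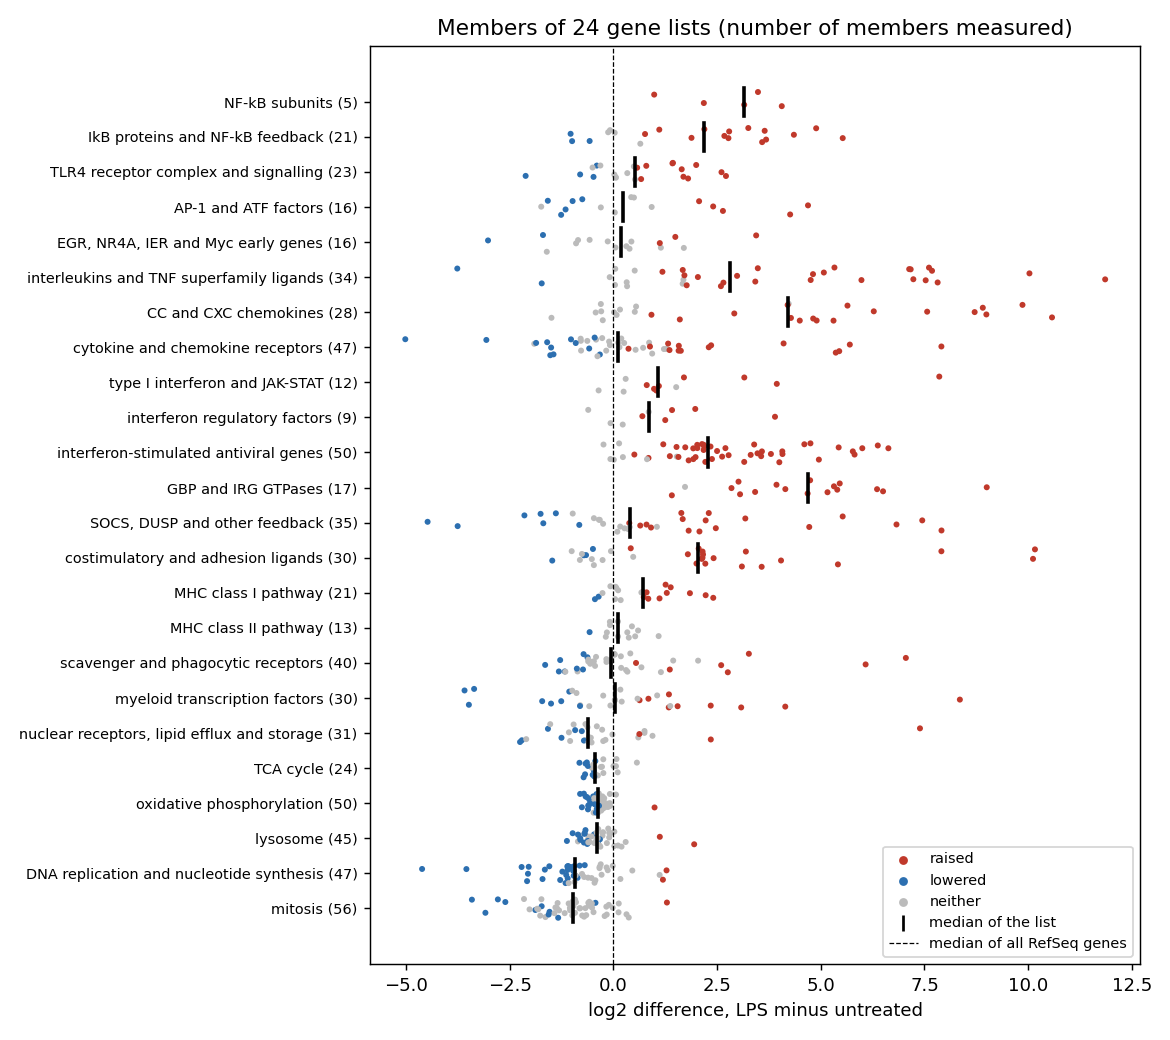
Log2 difference between LPS and untreated arrays (horizontal axis) for the members of 24 gene lists, 1 point a gene, red where it rose, blue where it fell and gray otherwise, with the list median as a black bar and the median of all RefSeq genes (−0.013) as a dashed line. The medians of the GBP and IRG list (4.68) and the chemokine list (4.22) lie farthest to the right, and those of mitosis (−0.97) and DNA replication (−0.93) farthest to the left.

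For the large housekeeping groups the medians were small, and many falls were lost under the other scalings. Of 50 oxidative phosphorylation genes 19 fell and 1 rose, with a median of −0.36 after quantile normalization and of −0.16 relative to all genes after 75th percentile or spike-in scaling, and 0 of the 19 kept the call under either of these. All 50 were well above background on all 4 arrays, and the median of all such genes was −0.24 after quantile normalization. With 75th percentile and spike-in scaling the list medians, 0.15 and −0.26, were higher than the −0.015 and −0.43 of such genes. Of 54 cytosolic ribosomal protein genes 11 fell and 0 rose, with medians of −0.33 after quantile normalization and −0.076 relative to all genes, and 0 calls kept. All 54 were well above background on all 4 arrays. Their medians with 75th percentile and spike-in scaling, 0.24 and −0.17, were likewise higher than those of such genes. Of 24 TCA cycle genes 10 fell, with medians of −0.45 and −0.36, and of 45 lysosome genes 14 fell and 2 rose, with medians of −0.40 and −0.33. The medians of these 2 lists were −0.035 and −0.0067 with 75th percentile scaling and −0.45 and −0.42 with spike-in scaling. Genes well above background on all 4 arrays had −0.015 and −0.43. Of the falls, 2 of the 10 and 4 of the 14 kept the call under 75th percentile scaling and 0 of either under spike-in scaling. With normexp background correction 19 ribosomal and 23 lysosome genes fell. The shares of falls in the 4 lists, 38%, 20.4%, 41.7% and 31.1%, stand beside 27.4% of detected genes, and with the arrays left out 2, 0, 4 and 7 of the 19 oxidative phosphorylation, 0, 0, 0 and 1 of the 11 ribosomal, 2, 1, 3 and 4 of the 10 TCA cycle and 2, 2, 5 and 7 of the 14 lysosome falls kept the call. The most lowered genes of the oxidative phosphorylation, TCA cycle and lysosome lists were *Ndufb10* (−0.80 ± 0.11), of respiratory complex I, *Sdhb* (−0.82 ± 0.057), of succinate dehydrogenase, and *Neu1* (−1.12 ± 0.12), a sialidase. *Ctsc*, a lysosomal protease, rose by 1.95 ± 0.31.

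Of 25 glycolysis genes 6 (24%) rose and 6 (24%) fell, beside 14.4% and 27.4% of detected genes, of which 1, 2, 1 and 3 and 1, 1, 0 and 2 kept the call with the arrays left out, and the median was −0.27, or −0.035 relative to all genes with 75th percentile or spike-in scaling. All 25 were well above background on all 4 arrays, where the median of all genes was −0.24 after quantile normalization. The list medians with 75th percentile and spike-in scaling, 0.29 and −0.13, were higher than the −0.015 and −0.43 of such genes. With spike-in scaling 2 of the rises and 1 of the falls kept the call, as did 1 of the 5 prostaglandin pathway falls, 4 of the 8 scavenger receptor falls, 4 of the 7 falls of nuclear receptors and lipid efflux, 1 of the 4 oxidative stress falls and 3 of the 5 rises of interferon regulatory factors. *Slc2a6*, a glucose transporter family member, read 13.71 and 13.66 on the untreated arrays and 16.71 and 16.67 on the LPS arrays. *Hk2*, the inducible hexokinase, read 9.66 and 9.90 without LPS and 11.23 and 11.59 with it. *Gapdh*, a common reference gene, read 17.99 and 18.07 without LPS and 17.62 and 17.74 with it. The LPS arrays were the higher ones for *Slc2a6* and *Hk2*, which rose by 3.0 ± 0.22 (adjusted p = 0.00525) and 1.63 ± 0.28 (adjusted p = 0.0305). *Gapdh* differed by −0.35 ± 0.073 (adjusted p = 0.0482), and 1 of its 8 probes was called. *Ldha* (−0.32 ± 0.092, adjusted p = 0.102) and *Slc2a1* (0.89 ± 0.28, adjusted p = 0.128) were not called. *Pfkfb3*, which makes the activator of phosphofructokinase, rose (1.27 ± 0.25) and *Pfkfb4* fell (−2.0 ± 0.25). *Pfkfb3* (1 of 2 probes) and *Pfkfb4* (1 of 2 probes) were called by part of their probes.

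**Figure D5:**
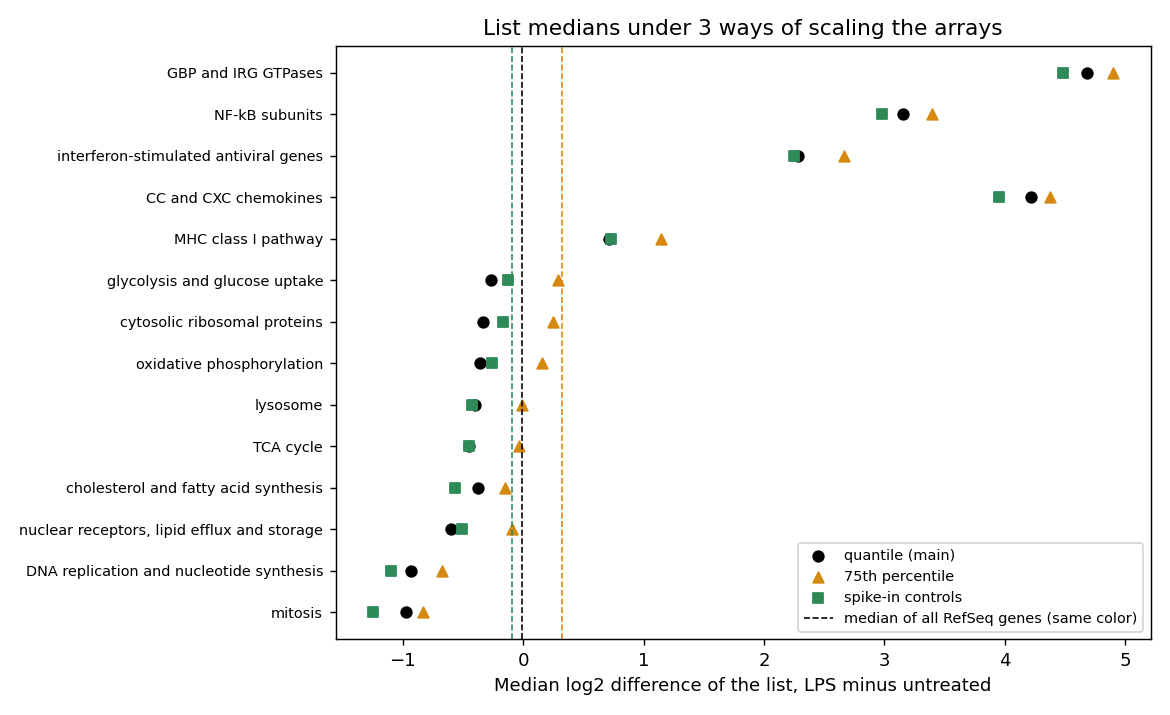
Median log2 difference, LPS minus untreated, of gene lists (horizontal axis) after quantile normalization (black circles), 75th percentile scaling (orange triangles) and spike-in scaling (green squares). Dashed lines of the same colors mark the median of all RefSeq genes in each fit (−0.013, 0.32 and −0.096), and the ribosomal protein and oxidative phosphorylation medians lie to the left of that line in all 3. Genes well above background on all 4 arrays, not drawn, had medians of −0.24, −0.015 and −0.43. Beside these the 2 lists lie lower after quantile normalization and higher after the other scalings.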

How the data were processed

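Total RNA of untreated and LPS-stimulated BMDMs was profiled on 1-color Agilent mouse arrays (n = 2 a group). The authors deposited spot intensities written by Agilent Feature Extraction 10.7.3.1, with its own background correction, and a table of log2 values that the methods describe as quantile-normalized with limma, with no background correction stated. The deposited log2 values had medians of 5.07 to 5.10 on these 4 arrays, and their centring stays unknown. Differences run as LPS minus untreated.

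Here log2 processed signals were quantile-normalized, spots marked as outliers were left out, spots of a probe were averaged, and all 6 arrays were fitted with limma 3.58.1 in R 4.3.3, with Benjamini-Hochberg adjustment over 55680 probes at 0.05. Of 55681 probes, 31220 were named by RefSeq (26762 by accession, 3819 by symbol and 639 by synonym), and the others kept the name of the array file. At-least-fold bounds set the mean of the bright group against a detection floor on the arrays of the dim group, which is the least signal still marked as well above background there, or the probe's own signal if higher. Every column of the files belonged to a labelled sample (0 others). Of 1151 entries in 48 gene lists, 1142 were measured. Named genes were list members, the 10 with the largest difference in each direction, and the 5 highest bounds in each direction. The members and lists were chosen with earlier results of these data known. Promoters were from RefSeq, and genes with several promoters (2800) were not searched. Some list members are counted but not reported here by name. The scripts were tested on simulated data. Alternatives were other scalings, background corrections, filters, probe rules, fits and arrays left out.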

Additional observations from a re-analysis of the deposited data

How the results depend on the processing

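Over all 34787 names on the array, RefSeq or not, 2775 rose and 4443 fell, and both directions were called under all alternatives. Scaled to the 75th percentile, 12150 names rose, with 2770 of the 2775 among them, and scaled to the spike-in controls 1799 rose. With 1 array left out, the fit had an arm with a lone sample assumed to vary like the others, and the counts ranged from 1138 to 2117 raised and from 1644 to 2584 lowered names, the fewest without untreated replicate 2. A log2 difference of at least 1 besides the adjusted p left 2241 lowered names and 1997 raised ones. The other counts, with normexp background correction, the deposited log2 values, dim probes left out, spots marked as outliers kept, a trended prior, the mean of a gene's probes, RefSeq genes only or only the 4 arrays, lay between 2019 and 3156 raised and between 3091 and 5318 lowered.

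Same-numbered arrays deviated together (r = 0.47 across probes between untreated and LPS), but the 2 groups have only 2 such pairs. The labels do not say that a number marks a shared batch, and the number also runs with the slide row. Apart from the call of *Ifi30*, the replicate block is therefore given only here. Under the block, 3 of the 5 rises of interferon regulatory factors kept the call. So did 2 of the 4 falls of the TLR4 list and 6 of the 9 falls of cholesterol and fatty acid synthesis. With the replicate block, 2932 names rose and 4706 fell, of which 2419 and 3834 were shared with the fit without it. Of the 253 named genes that were called, between 170 and 185 stayed past the threshold in the same direction with an array left out, 223 with only the 4 arrays, 228 with spike-in scaling, 240 with 75th percentile scaling, 240 with the replicate block and 241 with the deposited values. Relative to the median of all genes, 5 of the 48 list medians had the other sign with 75th percentile and with spike-in scaling, 4 with the deposited values and 2 with normexp. With 75th percentile scaling, which moved the median of all genes to 0.32, *Gapdh* turned to 0.29 and *Lyz2* to 0.37, and with the mean of all probes *Cd80* turned to 1.03 and *Tbxas1* to 0.20. The cause was not tested. Signal over background limits the 8211 RefSeq genes, of 22221, that were well above background on none of the 4 arrays.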

Other observations

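Gene symbols that share a stem were counted over the 13082 RefSeq genes well above background on both arrays of a group, for stems with at least 20 such genes. These groups were chosen after their values were seen. They were counted after quantile normalization only, and the counts were not repeated under other scalings or with arrays left out. The Zfp stem, mostly zinc finger proteins that bind DNA, held 324 genes, of which 158 (48.8%) fell and 25 (7.72%) rose, with a median of −0.73, beside 27.4% and 14.4% of all these genes. Of 38 Zbtb genes, which join a zinc finger to a BTB domain, 17 fell and 6 rose. The Klhl group of adaptors of cullin 3 ubiquitin ligases had 21 genes, 11 of which fell and 1 of which rose. The subunits of the mitochondrial ribosome fell in 21 of 49 Mrpl genes (42.9%) and 12 of 29 Mrps genes (41.4%), with medians of −0.34 and −0.39. In the oxidative phosphorylation list, with a median of −0.36, 0 of 19 falls kept the call under 75th percentile or spike-in scaling. Over all RefSeq genes well above background on all 4 arrays the median was −0.24, beside which the medians of all these groups are to be read. The Trim genes, ubiquitin ligases of which many act in antiviral defense, went both ways, with 13 of 41 raised and 17 lowered. Of 49 olfactory receptor genes 12 (24.5%) rose and 1 (2.04%) fell, beside 14.4% and 27.4% of all these genes, although their median was 0.25. A gene could enter the count through the LPS arrays alone, where it is then high, so no result about this stem is drawn from these counts.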
